A study of Sus scrofa with 8 samples.

Results

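Vascular endothelial nuclei were taken from single-nucleus RNA sequencing of pig retina by their marker transcripts. A nucleus was a member when it held at least 1000 unique molecular identifiers (UMIs, each 1 captured RNA molecule), at least 3 UMIs of CDH5, TEK, VWF, EGFL7 and PECAM1 together with at least 2 of these 5 genes detected, no UMI of the leukocyte gene PTPRC, at most 1 UMI of the glial genes SLC1A3 and RLBP1, and at most 2 UMIs of the photoreceptor and bipolar genes PDE6A, PDE6B and TRPM1. The rule took 286 of 364259 nuclei with at least 1000 UMIs, which is 0.0785%, and those 364259 came from 388491 deposited nuclei in all. The 11 genes of the rule chose the members, so they are described and not tested.

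In all, 8 retinas of 6 female Yucatan minipigs, 3 to 5 months old, were compared. The AAV retinas had received an intravitreal injection of 5e11 vector genomes of AAV2.7m8, an engineered adeno-associated virus capsid, that carried green fluorescent protein under the ubiquitous CAG promoter, and the vehicle retinas had received the carrier solution alone. All animals, controls included, had been given intravitreal Vitrase, a hyaluronidase, 2 weeks before dosing and methylprednisolone, a corticosteroid, at 5 mg/kg each week, so every group described here is a steroid-treated eye that had been injected before. At week 2 (day 15) both eyes of 1 AAV animal (7221) and 1 vehicle animal (7222) were sequenced, and at week 4 the left eyes of 2 AAV animals (7248 and 7249) and 2 vehicle animals (7250 and 7251). The animals were perfused before the retinas were taken, and the batch given in the labels is the group itself, which means that an effect of batch cannot be told apart from one of treatment.

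Endothelial cells line the blood vessels of the inner retina. They are sealed by tight junctions and low in caveolar transport, which together make the inner blood-retina barrier, and this state is kept by norrin and Wnt signalling through beta-catenin and the factor LEF1. Along the vessel tree the cells differ: arterial cells make CXCL12, capillary cells carry barrier transporters such as SLCO1A2, and the cells of small veins carry the receptors that let leukocytes adhere and cross, among them ACKR1, SELP and VCAM1. Interferon turns on a common set of antiviral genes in nearly every cell, and endothelium exposed to interferon or tumor necrosis factor also displays adhesion receptors and chemokines.

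Short promoter motifs are known switches for these programs, the interferon-stimulated response element (ISRE, searched as GAAA, any 2 bases, GAAA) and the NF-kB site (searched as GGG, any 2 bases, TTTCC). They were searched on both strands in the 250 bases before the start of each protein-coding gene of the RefSeq annotation of Sscrofa11.1, the build the files use. No ready-made promoter table was used, and the windows were read from the genome sequence. They are shown for 4 genes whose levels are described further on, as examples of a window with 1 ISRE, 2 ISREs, 3 ISREs and 1 NF-kB motif, written 5′ to 3′ on the strand of the gene with the motif letters in capitals. CXCL10 lies on the minus strand, with its window at chr8:71695949-71696198. VCAM1 also lies on the minus strand, with its window at chr4:117511212-117511461. The windows of IFIH1, chr15:68985146-68985395, and UBD, chr7:22502884-22503133, are on the minus strand too.
CXCL10: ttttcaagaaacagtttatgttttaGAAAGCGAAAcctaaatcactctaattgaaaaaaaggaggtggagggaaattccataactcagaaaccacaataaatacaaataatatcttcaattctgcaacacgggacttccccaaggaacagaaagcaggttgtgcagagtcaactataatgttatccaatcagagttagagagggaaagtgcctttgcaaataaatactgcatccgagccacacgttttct
VCAM1: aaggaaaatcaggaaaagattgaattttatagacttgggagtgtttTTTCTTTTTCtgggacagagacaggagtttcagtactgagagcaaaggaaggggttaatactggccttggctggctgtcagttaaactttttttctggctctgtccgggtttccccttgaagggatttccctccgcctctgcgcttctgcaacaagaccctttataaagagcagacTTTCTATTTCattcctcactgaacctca
IFIH1: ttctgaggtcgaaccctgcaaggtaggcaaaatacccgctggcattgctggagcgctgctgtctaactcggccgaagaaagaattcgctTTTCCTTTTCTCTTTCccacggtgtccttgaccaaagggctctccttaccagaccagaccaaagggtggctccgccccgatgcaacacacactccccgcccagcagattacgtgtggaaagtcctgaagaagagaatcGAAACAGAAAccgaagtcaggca
UBD: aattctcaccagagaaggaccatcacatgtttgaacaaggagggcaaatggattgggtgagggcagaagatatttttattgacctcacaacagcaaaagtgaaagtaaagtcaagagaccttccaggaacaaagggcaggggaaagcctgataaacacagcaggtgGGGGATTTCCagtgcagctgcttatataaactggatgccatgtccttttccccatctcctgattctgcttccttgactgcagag
CXCL10 held its ISRE letters 225 bases before the start. VCAM1 held a match at 204 and another at 28 bases before the start, both on the opposite strand. IFIH1, which encodes a sensor of viral double-stranded RNA, held overlapping matches at 161 and 155 bases and a further one at 23 bases, and UBD, a ubiquitin-like protein induced by interferon and tumor necrosis factor, held the NF-kB letters at 84 bases. Over all 19240 promoter windows, 2.97% held the ISRE letters and 1.57% the NF-kB letters. Of the interferon-stimulated list, 14 of 45 windows (31.1%) held the ISRE letters, and of the chemokine list 5 of 32 (15.6%) held the NF-kB letters. Of the genes that rose at week 4 in the marker-rich nuclei defined in the next paragraph, 6 of 106 windows (5.66%) held the ISRE letters, and of those that fell 1 of 88 (1.14%). A letter match is a description of the window and not a bound site. Each motif was searched as 1 fixed spelling, so an NF-kB site spelled otherwise was not counted. A window without a match, such as that of VCAM1 or CXCL10 for NF-kB, may therefore still hold a site.

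The label was checked against markers that the rule did not use, and it held for most members only. In 208 members (72.7%) the 5 rule markers made up at least 0.1% of all UMIs, and these are called marker-rich nuclei. Their leading genes against all other nuclei were endothelial: CLDN5, the main claudin of the barrier, stood at 837 UMIs per 1000000 UMIs of its nuclei (CPM) against 0.298 CPM elsewhere, followed by CD93, ITM2A, MYCT1, ROBO4 and TBX1, and the endothelial transcription factors LEF1, MECOM and ERG were detected in 90.4%, 88.5% and 75.5% of them. In the other 78 members (27.3%) the markers were diluted among many other transcripts, and these are called marker-poor nuclei. Their median was 13076 UMIs against 2845 in marker-rich nuclei, CLDN5 was detected in 5.13% of them against 55.3%, and their leading genes were neuronal (PPP1R1C, SLC17A6, RBPMS, ELAVL2 and EPHA6). The ganglion cell marker list summed to 1300 CPM in marker-poor and 333 CPM in marker-rich nuclei. Because they are large, marker-poor nuclei gave 65.3% of all UMIs of the members, from 37.6% in AAV 7249 to 86.9% in the left retina of AAV 7221. The split at 0.1% was chosen after these values had been seen, and 46 members lay within 0.05 percentage points of it. Counts are therefore given for all members and for marker-rich nuclei in each comparison, and the marker-rich nuclei carry the description of named genes.

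**Figure D1:**
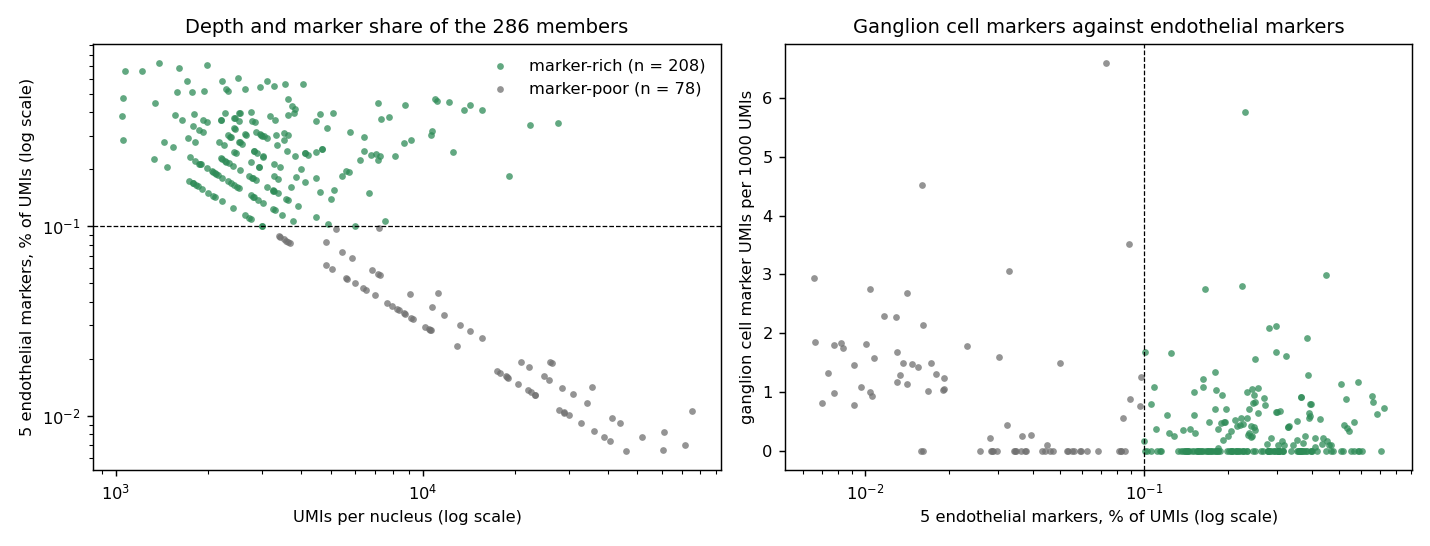
Each point is 1 of the 286 members, with the 5 rule markers as % of UMIs (log scale) plotted against UMIs per nucleus (log scale) on the left and ganglion cell marker UMIs per 1000 UMIs against the marker share on the right, and the dashed line marks the 0.1% split between 208 marker-rich (green) and 78 marker-poor (grey) nuclei. The deepest nuclei lie below the line on the left, and the nuclei with the lowest marker shares hold ganglion cell transcripts on the right.

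Members were rare in every retina. AAV 7221 gave 30 nuclei from the left eye and 63 from the right, vehicle 7222 gave 31 and 44, AAV 7248 and 7249 gave 30 and 28, and vehicle 7250 and 7251 gave 22 and 38. As a share of nuclei with at least 1000 UMIs they ran from 0.0489% (95% exact binomial interval 0.0306% to 0.0740%) in vehicle 7250 to 0.151% (0.116% to 0.193%) in the right retina of AAV 7221, and these intervals cover counting error only. The AAV and vehicle ranges overlapped at both weeks. Marker-rich nuclei numbered 17 and 43 in AAV 7221, 24 and 36 in vehicle 7222, 26 and 22 in AAV 7248 and 7249, and 14 and 26 in vehicle 7250 and 7251. At the edge of the rule, 65 members held exactly 3 marker UMIs with a median of 6957 UMIs, and 212 nuclei with 2 marker UMIs that met the other conditions stayed outside with a median of 8459 UMIs. A further 126 nuclei had enough marker UMIs and failed an exclusion, 28 of them by holding PTPRC. No barcode was shared between members of different lanes, while 25 member barcode sequences also occurred in another lane of the series.

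**Figure D2:**
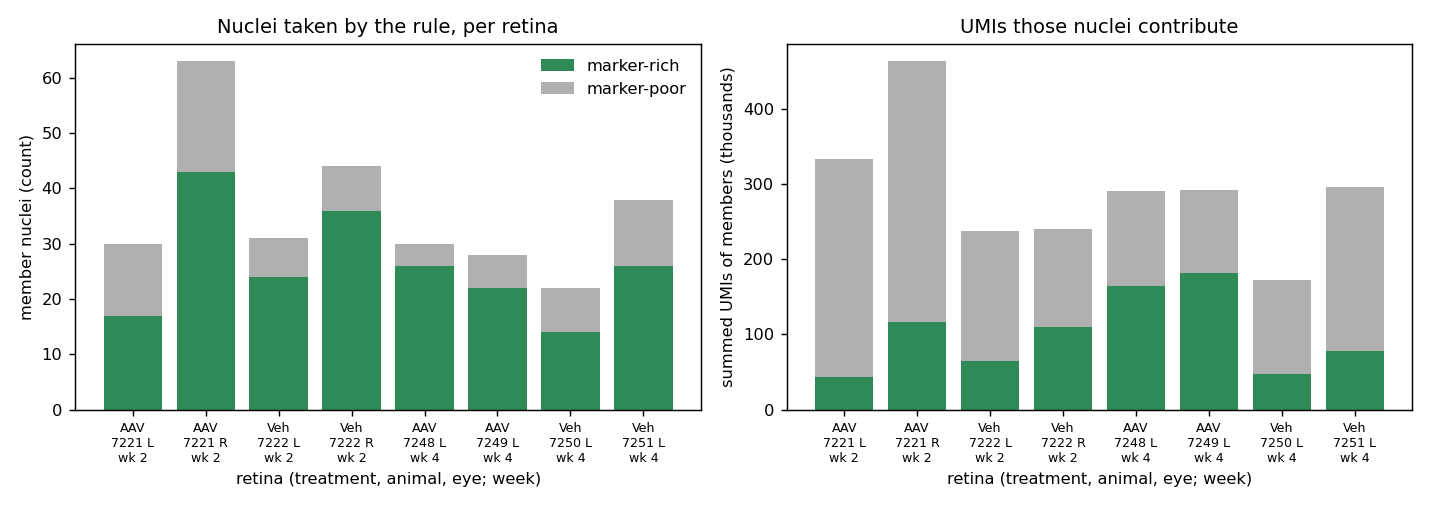
Member nuclei per retina (left, count) and the UMIs they hold (right, in units of 1000) in 4 AAV and 4 vehicle retinas, with marker-rich nuclei in green and marker-poor nuclei in grey. Marker-rich nuclei are the majority of members in each retina, while marker-poor nuclei hold most of the UMIs in 6 of the 8.

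Other transcripts differed between the week 4 groups inside the marker-rich nuclei. The pericyte marker list (RGS5, PDGFRB, NOTCH3 and 5 others) summed to 1388 and 1211 CPM in the AAV retinas and to 5457 and 2652 CPM in the vehicle retinas, so the groups did not overlap. Over all marker-rich nuclei CALD1, 1 of the 5 others, held 1117 of the list's 1538 CPM, and RGS5 held 263 CPM. The mural genes counted next were RGS5, PDGFRB, NOTCH3, KCNJ8 and ABCC9, without CALD1. At least 3 UMIs of mural genes were present in 3 of 48 AAV and 17 of 40 vehicle marker-rich nuclei, and those nuclei held 5.00% of the AAV UMIs and 55.1% of the vehicle UMIs. Pericytes share a basement membrane with endothelium, and whether these are joined nuclei was not tested. The rod list was lower in AAV, at 212 and 132 CPM against 746 and 1007 CPM. So were the Müller glia list, at 309 and 323 CPM against 490 and 548 CPM, and the cone list, at 12.1 and 38.4 CPM against 42.6 and 561 CPM. The ganglion cell list was lower too, at 206 and 175 CPM against 725 and 523 CPM. Over all marker-rich nuclei RBPMS held 274 of its 333 CPM, and 3 of its 6 genes were at 0. Mural nuclei stood at 1985 CPM on the same list. At week 2 the pericyte list was lower in AAV too, at 390 and 248 CPM in AAV 7221 against 892 and 2045 CPM in vehicle 7222, with at least 3 mural UMIs in 2 of 60 and 6 of 60 nuclei. At week 4 the microglia and macrophage list was higher in AAV, at 158 and 280 CPM against 0 and 12.8 CPM. It was 0 CPM in each week 2 retina. Over all marker-rich nuclei CD163 held 60.6 of its 96.4 CPM, and 2 of its 8 genes were at 0. The week 4 lymphocyte list was 121 and 104 CPM against 42.6 and 12.8 CPM. Over all marker-rich nuclei JCHAIN and IGHM held 38.3 and 14.8 of its 66.8 CPM. At least 3 UMIs of the 2 lists were present in 6 and 2 of 208 nuclei. Median depth was 3835 and 7495 UMIs in AAV 7248 and 7249 and between 2520 and 2941 UMIs in the other 6 retinas. The part that each of these differences has in the results was not tested, other than by repeating the week 4 fit without the nuclei that held at least 3 mural UMIs.

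At week 4 the 2 AAV animals were compared with the 2 vehicle animals by edgeR's quasi-likelihood test on UMIs summed per retina. Over all members, 413 of 5825 genes tested (7.09%) passed a Benjamini-Hochberg adjusted p of 0.05, 291 higher (5.0%) and 122 lower (2.09%) in AAV. In marker-rich nuclei 241 of 3106 genes (7.76%) passed, 131 higher (4.22%) and 110 lower (3.54%). Of the 131 rises, 107 (81.7%) were also among the 291 rises over all members (36.8% of those), while the falls shared 24 genes, 21.8% of the 110 and 19.7% of the 122. Without the nuclei holding mural UMIs, 134 of 2365 genes (5.67%) passed, 90 higher (3.81%) and 44 lower (1.86%). Of the 131 rises, 119 could still be tested, all 119 stayed higher and 65 passed, whereas of the 110 falls 52 could be tested, 44 stayed lower and 23 passed. The nuclei left out were 17 of 40 in vehicle and 3 of 48 in AAV, so 58 of the 110 falls and 12 of the 131 rises could no longer be tested, and the shares that passed are not compared. With 2 animals a group, single retinas carried part of the counts. Without vehicle 7250 the marker-rich count was 43, and over all members it was 633 without vehicle 7250 and 128 without AAV 7249. A fit without 1 of the 4 retinas keeps 1 retina in a group, so the spread within that group is not seen. Passing in such a fit, here and below, therefore does not show that a call holds. ACKR1, LHX6, DDX60, PARP14, GBP1, BIRC3, COL4A1, MAGI1, CXCL12 and SPARCL1 kept their direction whichever of the 4 retinas was left out. The log2 difference ran from 2.01 to 2.48 for COL4A1 and from 4.63 to 5.51 for BIRC3. It ran from -8.87 to -6.24 for CXCL12 and from -2.22 to -1.54 for SPARCL1. RGS6 and GRM7, which mural nuclei also held, and SFRP2, which was high in Müller nuclei, kept their direction too. TCF15 did so in the 3 of these 4 fits in which it had enough UMIs to be tested.

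Receptors and chemokines that draw leukocytes were among the genes that rose from no UMI in the vehicle retinas. ACKR1, the receptor on venular endothelium that carries chemokines to the vessel lumen, stood at 558 and 471 CPM in the marker-rich nuclei of AAV 7248 and 7249 and had no UMI in vehicle 7250 and 7251. It was detected in 19 of 48 AAV nuclei and in 0 of 40 vehicle nuclei, and the level was at least 21.4-fold higher in AAV, counting the vehicle group at a floor of 3 UMIs (edgeR adjusted p = 0.00344). At week 2 no more than 9.05 CPM was found in any retina. The at least n-fold values here and below pool the UMIs of both animals of a group. They do not cover the spread between animals or between nuclei. SELP, the P-selectin on which leukocytes roll, stood at 261 and 159 CPM in AAV with no UMI in vehicle, at least 8.66-fold higher (edgeR adjusted p = 0.0110). VCAM1, the ligand of leukocyte integrins, stood at 212 and 603 CPM with none in vehicle, at least 17.4-fold higher (edgeR adjusted p = 0.0105). Without vehicle 7250 the adjusted p was 0.0551 for SELP and 0.0687 for VCAM1, and without AAV 7248 it was 0.123 for SELP. In these 3 genes the AAV animals both stood above the vehicle animals at week 4, which was so for 27.7% of all genes tested (26.2% stood below), and at week 2 both AAV eyes stood at the low level of the vehicle eyes.

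ICAM1, the second integrin ligand, passed over all members (edgeR adjusted p = 0.0238) but not in marker-rich nuclei, where it was 133 and 159 CPM in AAV against 42.6 and 25.5 CPM in vehicle (log2 difference 2.16 ± 0.64 SE, edgeR adjusted p = 0.0671). Of the venous list, 5 of 7 tested genes rose and 0 fell in marker-rich nuclei with a median log2 difference of 4.26, against 0.04 over all genes tested, and the 5 were ACKR1, VCAM1, SELP, the interleukin-1 receptor IL1R1 and the protease TLL1. The venous list and the lists below were written with earlier results of these data known, so their counts are a description. Of 12 venous genes listed, 10 were annotated and 7 tested. ACKR1, VCAM1 and SELP, with no vehicle UMI, met the expression filter through the AAV retinas alone, so the share and median depend on that filter. The same holds for other genes below with no vehicle UMI. IL1R1, at 703 and 504 CPM against 0 and 191 CPM, had an adjusted p of 0.0478 with edgeR and 0.819 with DESeq2, and with edgeR 0.145 without vehicle 7250 and 0.158 without nuclei holding mural transcripts. TLL1, at 182 and 164 CPM against 21.3 and 0 CPM, lost its call when AAV 7248, AAV 7249 or vehicle 7251 was left out (edgeR adjusted p = 0.177, 0.103 and 0.112) and with DESeq2 (0.177). VWF, the carrier of coagulation factor VIII and a venous gene, was part of the rule and is not tested. Its level was 1024 and 1036 CPM in AAV and 107 and 217 CPM in vehicle at week 4. The part that choosing nuclei by VWF has in the venous list counts was not tested.

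Among chemokines and cytokines, 5 of 6 tested genes rose and 1 fell, and without nuclei holding mural transcripts 4 of 5 rose and 0 fell. Of the 32 genes listed, 27 were annotated and 6 had enough UMIs to be tested. ACKR1, CXCL10, CXCL9 and CCL2 had no vehicle UMI at week 4, so they met the expression filter through the AAV retinas alone. The share that rose is therefore a description. The microglia and macrophage list, of which CD163 was the largest part, moved with the 5 rises, at 158 and 280 CPM in AAV against 0 and 12.8 CPM in vehicle. Its part in these rises was not tested, and macrophages make CXCL9, CXCL10 and CCL2 too. CXCL10, a ligand of the T cell receptor CXCR3, reached 200 and 702 CPM in AAV 7248 and 7249 and had no UMI in the vehicle retinas (at least 19.4-fold higher, edgeR adjusted p = 0.0131). Its level in AAV 7221 was already 22.9 and 103 CPM at week 2, with no UMI in vehicle 7222. CXCL9, a second CXCR3 ligand, was detected at week 4 only in the AAV retinas, at 164 and 592 CPM (at least 16.2-fold higher, edgeR adjusted p = 0.0162). CCL2, the main attractant of monocytes, reached 115 and 323 CPM with none in vehicle (at least 9.38-fold higher, edgeR adjusted p = 0.0215). Unlike CXCL10, neither CXCL9 nor CCL2 had a UMI in any of the 4 week 2 retinas. Without vehicle 7250 the adjusted p rose to 0.0734 for CXCL10, 0.0862 for CXCL9 and 0.0910 for CCL2, without vehicle 7251 to 0.0525 for CCL2, and without AAV 7249 to 0.141 for CXCL9.

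These transcripts were unevenly shared between nuclei. Of the 135 CXCL9 UMIs 53.3% came from 1 nucleus, and of 161 CXCL10 UMIs 23.6% did. IL33, a nuclear alarmin, rested on 5 of 48 AAV nuclei, with 56.9% of its 65 UMIs in 1 of them, and stood at 158 and 214 CPM against 0 and 25.5 CPM in vehicle (edgeR adjusted p = 0.0255). UBD was detected in 20 of 48 AAV nuclei at 145 and 581 CPM and in 0 of 40 vehicle nuclei (at least 15.6-fold higher, edgeR adjusted p = 0.0200), with 39.2% of its 130 UMIs in 1 nucleus. Without AAV 7249 the adjusted p was 0.326 for IL33 and 0.287 for UBD, and without vehicle 7250 it was 0.108 and 0.0978. Both lost their calls with DESeq2 (adjusted p = 0.196 and 0.0665), and IL33 also without nuclei holding mural transcripts (edgeR 0.105). ACKR1 was spread more widely, its highest nucleus holding 19.1% of 178 UMIs.

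CXCL12, which arterial endothelium makes and which holds leukocytes and progenitors through CXCR4, went the other way. It stood at 725 and 459 CPM in vehicle 7250 and 7251 and at 6.06 and 0 CPM in AAV 7248 and 7249, with 70 UMIs against 1 (edgeR adjusted p = 0.00206; ratio of AAV to vehicle 0.00515, 95% counting interval 0.000129 to 0.0297). At week 2 it was 0 and 25.7 CPM in AAV 7221 and 92.3 and 172 CPM in vehicle 7222, again with every vehicle eye above both AAV eyes, as was the pericyte list. Of the 70 vehicle UMIs at week 4, 78.6% lay in nuclei that also held at least 3 mural UMIs, and among nuclei without them 0 of 45 AAV and 6 of 23 vehicle nuclei had any. Mural nuclei themselves were at 8.34 CPM. TCF15, a transcription factor of capillary endothelium, followed the same pattern, at 6.06 and 0 CPM against 533 and 153 CPM (edgeR adjusted p = 0.00660), with 78.4% of its vehicle UMIs in nuclei holding mural transcripts. Neither CXCL12 nor TCF15 kept enough UMIs to be tested without those nuclei.

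**Figure D3:**
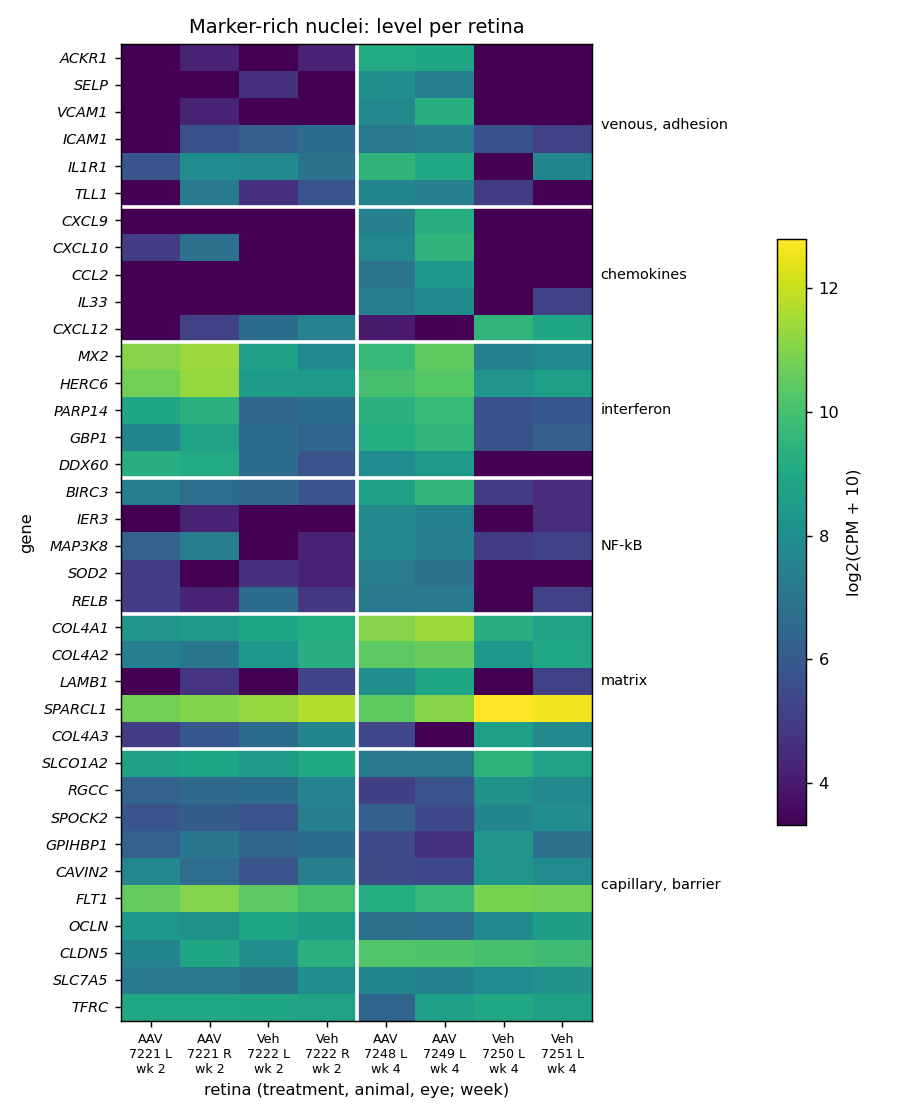
Level of named genes in the marker-rich nuclei of each of the 8 retinas, as log2(CPM + 10) in colour, with genes grouped by role and a white line between weeks 2 and 4. ACKR1, SELP, VCAM1, CXCL9 and CCL2 are brightest in the 2 AAV retinas of week 4, the interferon genes are bright in all 4 AAV retinas, and CXCL12 is brightest in the 2 vehicle retinas of week 4.

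Other genes were counted in the AAV nuclei of week 4 with and without ACKR1. Among the 19 nuclei with ACKR1, SELP was detected in 14, VCAM1 in 15, the homeobox gene LHX6 in 14, CXCL10 in 14 and NR2F2, a transcription factor that specifies veins, in 12. Among the 29 AAV nuclei without ACKR1 the same genes were detected in 3, 7, 6, 3 and 3. SLCO1A2, an organic anion transporter of barrier capillaries, ran the other way, in 3 of 19 nuclei with ACKR1 and 12 of 29 without, while the amino acid transporter SLC7A5 was in 14 of 19 and 10 of 29 and FLT1 in 15 of 19 and 19 of 29. The ACKR1-positive nuclei were deeper, with a median of 10629 UMIs against 3558, and CLDN5 was detected in 19 of 19 and 14 of 29. Depth can raise a detection share, and its part in these shares was not tested. These shares are therefore a description, with no test. LHX6 itself stood at 297 and 203 CPM in AAV against none in vehicle (at least 10.3-fold higher, edgeR adjusted p = 0.00746), and at 0.154 CPM in the other nuclei of the series.

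The venous and capillary lists were also counted in each nucleus, after thinning all marker-rich nuclei to 1000 UMIs to remove the depth difference. At least 1 UMI of the venous list, VWF left out, was then present in 46.2% and 63.6% of nuclei of AAV 7248 and 7249 and in 14.3% and 26.9% of vehicle 7250 and 7251. Unthinned, the shares were 69.2% and 77.3% against 35.7% and 46.2%. At week 2 the thinned counts were 1 of 17 and 6 of 43 nuclei in AAV 7221 and 3 of 24 and 6 of 36 in vehicle 7222. The venous shares of the 2 AAV retinas at week 4 were the highest of the 8 retinas. VWF helped to choose these nuclei, at 1024 and 1036 CPM in AAV and 107 and 217 CPM in vehicle at week 4. Leaving it out of the list does not undo that choice, and its part in the venous and capillary counts was not tested. For the capillary list the thinned shares at week 4 were 50% and 59.1% in the AAV retinas and 85.7% and 76.9% in the vehicle retinas, the reverse order. At week 2 they were 52.9% and 60.5% in AAV 7221 and 45.8% and 80.6% in vehicle 7222. The lowest thinned capillary share was thus that of a week 2 vehicle eye. Unthinned, the week 4 capillary medians per 1000 UMIs were 0.352 and 0.573 in AAV and 2.13 and 1.57 in vehicle.

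Interferon-stimulated genes were the largest group of rises. Over all members 31 of 38 tested genes of the list rose and 0 fell, with a median log2 difference of 3.07, and in marker-rich nuclei 18 of 32 rose and 0 fell, with a median of 2.13. All 32 were higher in AAV, but many of the 18 calls rested on single retinas or on the tool: 7 of the 18 passed with DESeq2, and with edgeR 14 passed without AAV 7248, 9 of the 16 still tested without AAV 7249, 3 without vehicle 7250 (DDX60, GBP1 and PARP14) and 11 without vehicle 7251. Over all members the neuronal share moved with the groups: marker-poor nuclei held 43.3% and 37.6% of the UMIs in AAV and 72.8% and 73.5% in vehicle, the ganglion cell list was 519 and 670 CPM against 1259 and 1247 CPM, and without mixed members the 31 genes became 4. The median nucleus of AAV 7248 and 7249 held 10.9 and 16.2 UMIs of the list per 1000 UMIs, against 2.01 and 2.20 in vehicle 7250 and 7251. At week 2 the medians were 17.4 and 23.5 in AAV 7221 and 2.28 and 2.44 in vehicle 7222. All 4 AAV retinas therefore stood above all 4 vehicle retinas, which were 3 animals in each group. Every one of the 48 AAV nuclei at week 4 held at least 5.06 list UMIs per 1000.

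MX2, an antiviral GTPase, was at 782 and 1392 CPM in AAV against 171 and 217 CPM in vehicle at week 4 (log2 difference 2.47 ± 0.42 SE, edgeR adjusted p = 0.00973) and at 2110 and 2635 CPM in AAV 7221 against 415 and 217 CPM in vehicle 7222. It was above every vehicle retina in 4 of 4 AAV retinas, which came from 3 animals in each group. The share of all genes placed so over the 8 retinas was not counted. At week 4 alone both AAV animals stood above both vehicle animals in 27.7% of genes tested. PARP14, a mono-ADP-ribosyltransferase, was at 642 and 828 CPM against 42.6 and 51.0 CPM (3.93 ± 0.48, edgeR adjusted p = 0.00344), and GBP1, an interferon-induced GTPase, at 576 and 718 CPM against 42.6 and 63.8 CPM (3.53 ± 0.47, edgeR adjusted p = 0.00396). DDX60, which aids RNA sensors, was at 230 and 351 CPM with no UMI in vehicle (at least 12.3-fold higher, edgeR adjusted p = 0.00660). IFIH1 was at 224 and 345 CPM against 21.3 and 63.8 CPM (edgeR adjusted p = 0.0255). Without vehicle 7250 the adjusted p was 0.0734 for MX2 and 0.148 for IFIH1, and IFIH1 also lost its call with DESeq2 (adjusted p = 0.156).

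IFI6, a mitochondrial interferon-induced protein, was detected in 42 of 48 AAV and 13 of 40 vehicle nuclei and stood at 909 and 1409 CPM against 1151 and 446 CPM so the groups overlapped and the gene did not pass (edgeR adjusted p = 0.462). Of its 89 vehicle UMIs, 42.7% came from 1 nucleus and 88.8% from nuclei that held mural transcripts. Without those nuclei the log2 difference was 2.74 (edgeR adjusted p = 0.00992). Under the same omission 18 of 30 interferon-stimulated genes rose and 0 fell, with a median of 2.86.

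**Figure D4:**
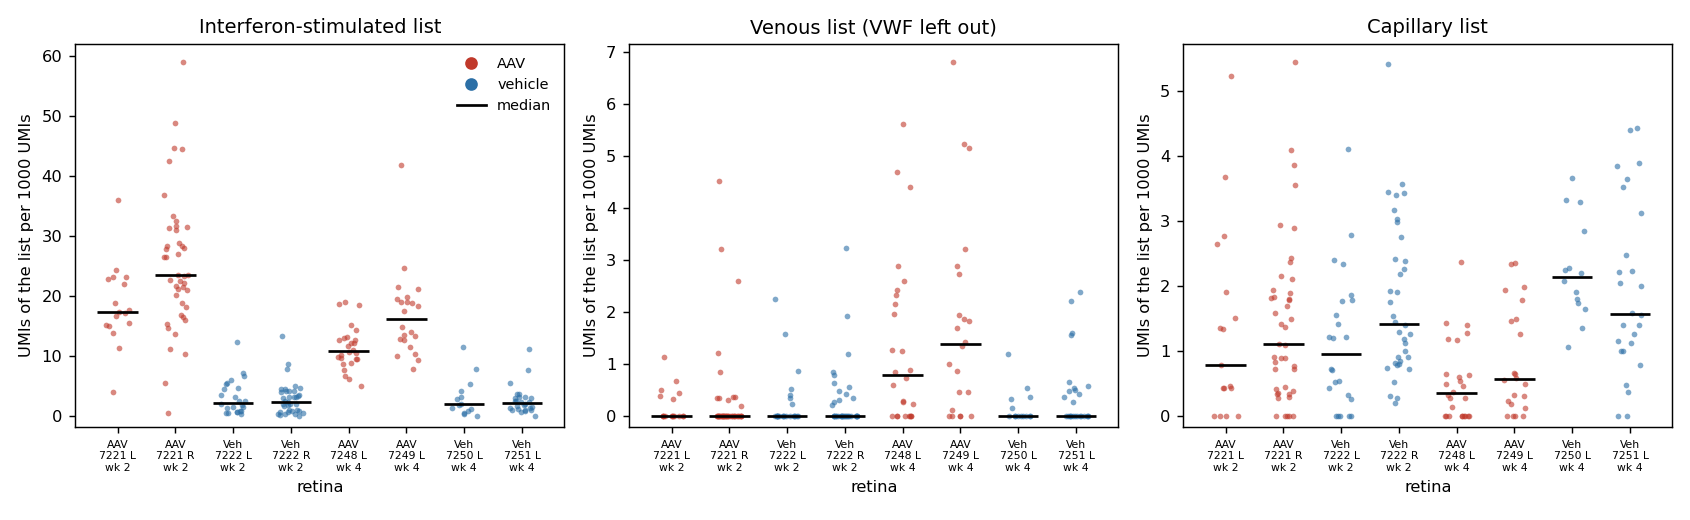
UMIs of the interferon-stimulated, venous and capillary lists per 1000 UMIs in each of the 208 marker-rich nuclei, by retina, with AAV in red, vehicle in blue and the median as a black line. The interferon medians are 10.9 to 23.5 in the 4 AAV retinas and 2.01 to 2.44 in the 4 vehicle retinas, while the venous medians are above 0 only in the 2 AAV retinas of week 4 and the capillary medians are lowest there.

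Of the antigen presentation list, 2 of 9 tested genes rose and 0 fell in marker-rich nuclei, and over all members 7 of 11 rose. TAP1, which loads peptides for class I molecules, was at 170 and 214 CPM against 42.6 and 12.8 CPM (2.94 ± 0.69, edgeR adjusted p = 0.0266), and it was 1 of the 2. The other, CTSS, a lysosomal protease abundant in macrophages, was at 145 and 192 CPM against 21.3 and 0 CPM (edgeR adjusted p = 0.0253), and the microglia and macrophage list was higher in AAV as well, as given above. Both calls were lost without AAV 7249 (edgeR adjusted p = 0.259 for TAP1 and 0.394 for CTSS), without vehicle 7250 (0.0732 and 0.0551), without vehicle 7251 (0.175 and 0.124) and with DESeq2 (0.244 and 0.185), and TAP1 also without nuclei holding mural transcripts (edgeR 0.0632). The class I light chain B2M was at 697 and 735 CPM against 895 and 548 CPM (edgeR adjusted p = 0.985), with 83.5% of its vehicle UMIs in nuclei holding mural transcripts.

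Of the NF-kB and tumor necrosis factor list, 5 of 14 tested genes rose and 0 fell, with a median log2 difference of 1.63. BIRC3, an inhibitor of cell death induced through NF-kB, was at 406 and 751 CPM against 21.3 and 12.8 CPM (5.10 ± 0.69, edgeR adjusted p = 0.00396; ratio of summed levels 36.8, 95% counting interval 10.1 to 306, with 2 vehicle UMIs). It was 161 and 94.1 CPM in AAV 7221 and 76.9 and 45.2 CPM in vehicle 7222. The other 4 were IER3, SOD2, RELB and the kinase MAP3K8. SOD2, RELB and MAP3K8 lost their calls with DESeq2 (adjusted p = 0.116, 0.398 and 0.275) and in every fit without 1 retina in which they were tested, and IER3 lost its call with DESeq2 (0.138), without AAV 7248 (edgeR 0.136) and without vehicle 7250 (0.0732). Without nuclei holding mural transcripts 1 of 10 passed, BIRC3. Of the JAK, STAT3 and interleukin-6 list 4 of 17 rose (IL4R, JAK2, IL1R1 and IFNGR1) and 1 fell, the stress factor JUN, and without those nuclei 1 of 17 passed, IL4R. JAK2 and IFNGR1 lost their calls with DESeq2 (adjusted p = 0.156 and 0.259), without vehicle 7250 (edgeR 0.145 and 0.148) and without vehicle 7251 (0.0672 and 0.0833), and JAK2 also without AAV 7249 (0.0508). JUN lost its call with DESeq2 (adjusted p = 0.0758), without vehicle 7250 (edgeR 0.0698) and without vehicle 7251 (0.208). With all nuclei IL4R lost its call with DESeq2 (adjusted p = 0.256) and without any 1 of the 4 retinas. Of the complement list the proteases C1S and C1R rose and CFD fell, of 5 tested. C1R and C1S lost their calls with DESeq2 (adjusted p = 0.321 and 0.157), without vehicle 7250 (edgeR 0.126 and 0.0862) and without vehicle 7251 (0.0626 and 0.0830), CFD lost its call without vehicle 7250 (0.0612), and without nuclei holding mural transcripts 0 of 3 passed with edgeR, where the adjusted p of C1R was 0.0505.

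COL4A1 and COL4A2 encode the collagen IV chains of the vascular basement membrane. COL4A1 stood at 2109 and 2681 CPM in AAV 7248 and 7249 and at 597 and 434 CPM in vehicle 7250 and 7251 (2.25 ± 0.34, edgeR adjusted p = 0.00584), and COL4A2 at 1339 and 1524 CPM against 320 and 485 CPM (1.81 ± 0.34, edgeR adjusted p = 0.0143). At week 2 the order was opposite, with COL4A1 at 298 and 334 CPM in AAV 7221 and 461 and 570 CPM in vehicle 7222, and COL4A2 at 161 and 120 CPM against 323 and 579 CPM. The pericyte list was also lower in AAV at week 2 (390 and 248 CPM against 892 and 2045 CPM), and its part in the week 2 order was not tested. Mural nuclei also held both genes, at 950 and 640 CPM over the series, and both rises passed without the nuclei that held mural transcripts (2.59 and 1.91, edgeR adjusted p = 0.00714 and 0.0271). LAMB1, a laminin chain, was at 255 and 471 CPM against 0 and 25.5 CPM (edgeR adjusted p = 0.0101). Of the basement membrane and matrix list 5 of 20 rose, with MGP and TIMP1 beside COL4A1, COL4A2 and LAMB1, and 2 fell. Without vehicle 7250 the adjusted p was 0.0862 for COL4A2 and 0.0698 for LAMB1, and it was 0.0643 for MGP and 0.106 for TIMP1, which lost their calls with DESeq2 too (0.0758 and 0.197). MGP also lost its call without AAV 7248 (edgeR 0.197) and without AAV 7249 (0.390), and TIMP1 without vehicle 7251 (0.111). Without nuclei holding mural transcripts 4 of 15 rose, all of these but TIMP1, and 0 fell.

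The 2 that fell were COL4A3, a collagen chain at 714 CPM in mural nuclei, and SPARCL1, a matrix protein abundant in vessels. SPARCL1 was at 7056 and 6363 CPM in vehicle and 1363 and 2204 CPM in AAV (-1.90 ± 0.32, edgeR adjusted p = 0.00973), but 78.6% of its vehicle UMIs lay in nuclei holding mural transcripts, and without them the difference was -0.75 (edgeR adjusted p = 0.237). The largest falls in marker-rich nuclei included RGS6, GRM7, P3H2, ENPEP and COL4A4, each of which stood at 255 CPM or more in mural nuclei. Without AAV 7248 the adjusted p was 0.0579 for ENPEP and 0.184 for COL4A4, without AAV 7249 it was 0.0725 and 0.226, and without vehicle 7250 it was 0.108 for COL4A3. Neither COL4A3 nor any of these 5 could be tested without the nuclei holding mural transcripts.

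CLDN5 was at 1188 and 1162 CPM in AAV against 1023 and 918 CPM in vehicle (0.29 ± 0.30, edgeR adjusted p = 0.637), and it passed over all members (1.11, edgeR adjusted p = 0.0365), where the marker-poor share also differed. LEF1, ERG, MECOM and FLI1 likewise passed over all members and not in marker-rich nuclei. SLCO1A2 fell, from 682 and 434 CPM in vehicle to 133 and 132 CPM in AAV (-2.03 ± 0.40, edgeR adjusted p = 0.0154), and it fell without mural transcripts too (-2.49, edgeR adjusted p = 0.0110). Without vehicle 7250 its adjusted p was 0.103. It was the only 1 of 14 tested barrier transport genes to pass in marker-rich nuclei, and over all members 1 of 14 rose (STRA6) and 0 fell. Over all genes tested in marker-rich nuclei 7.76% passed, so this count does not set the list apart. The amino acid transporter SLC7A5 stood at 188 and 170 CPM against 234 and 281 CPM (edgeR adjusted p = 0.466).

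Of the capillary list 3 of 6 fell and 0 rose, with a median log2 difference of -1.77: SLCO1A2, RGCC, a cell cycle regulator of capillaries, and the proteoglycan SPOCK2. Without nuclei holding mural transcripts 1 of 5 fell, SLCO1A2. Over all members 0 of 6 capillary genes passed, and over 6 animals 0 of 7 did in marker-rich nuclei. RGCC was at 24.2 and 43.9 CPM against 277 and 217 CPM (-2.77 ± 0.54, edgeR adjusted p = 0.0154, and 0.0806 without mural transcripts). Of the caveolae list CAVIN2, GPIHBP1 and CAVIN3 fell of 8 tested, with a median of -1.09. Without nuclei holding mural transcripts 1 of 6 fell, CAVIN2, and the median was 0.36 with 4 of 6 genes higher in AAV. Over all members 1 of 8 fell, CAVIN2, and over 6 animals 0 of 10 passed in marker-rich nuclei. CAVIN2, a coat protein of caveolae, was at 36.4 and 32.9 CPM against 298 and 230 CPM (-2.86 ± 0.52, edgeR adjusted p = 0.0112, and 0.0288 without mural transcripts). Without vehicle 7250 the adjusted p was 0.0879 for RGCC and 0.0698 for CAVIN2, and it was 0.103 for SPOCK2, 0.494 for GPIHBP1 and 0.116 for CAVIN3, and these 3 also lost their calls with DESeq2 (0.259, 0.15 and 0.293) and without AAV 7249 (edgeR 0.175, 0.0753 and 0.138). RGCC lost its call with DESeq2 as well (0.0672).

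FLT1, the decoy receptor for vascular endothelial growth factor, fell from 1876 and 1747 CPM to 576 and 800 CPM (-1.38 ± 0.31, edgeR adjusted p = 0.0255, and 0.0122 without mural transcripts). The endoglin gene ENG rose from 63.9 and 115 CPM to 273 and 351 CPM (edgeR adjusted p = 0.0490), and these were the 2 calls among 19 tested genes of the VEGF, Notch and Tie list. ENG lost its call with DESeq2 (adjusted p = 0.356) and without mural transcripts (edgeR 0.0745). Over all genes tested 7.76% passed, so neither these 2 of 19 nor the 1 of 11 of the norrin and Wnt list below set a list apart. Over all members 2 of 12 norrin and Wnt genes rose and 0 fell. Among junction genes the scaffold MAGI1 and the phosphatase PTPRB, which restrains TEK, rose and GJC1 and OCLN fell, of 16 tested. Over all members 3 of 17 junction genes rose (PTPRB, CGNL1 and CLDN5) and 0 fell. MAGI1 was at 1994 and 1803 CPM against 490 and 421 CPM (2.08 ± 0.32, edgeR adjusted p = 0.00660). OCLN, the tight junction protein occludin, was at 103 and 98.7 CPM against 213 and 383 CPM (-1.59 ± 0.43, edgeR adjusted p = 0.0491), and with DESeq2 its adjusted p was 0.381. GJC1, a connexin gene of gap junctions, lost its call with DESeq2 (adjusted p = 0.0653) and without vehicle 7250 (edgeR 0.203), and it could not be tested without the nuclei holding mural transcripts, where 1 of 14 junction genes rose (MAGI1) and 0 fell. Left-out retinas ended several of these calls: without vehicle 7250 the adjusted p was 0.107 for FLT1, 0.237 for ENG, 0.108 for PTPRB and 0.0827 for OCLN, without AAV 7248 it was 0.198 for FLT1, 0.0854 for PTPRB and 0.0890 for OCLN, without AAV 7249 it was 0.119 for ENG and 0.171 for OCLN, and without vehicle 7251 it was 0.0887 for ENG and 0.394 for OCLN. PTPRB also lost its call without mural transcripts (0.72, edgeR adjusted p = 0.251). Of the norrin and Wnt list 1 of 11 fell, ADGRA2, a coreceptor of Wnt ligands in brain endothelium, and it lost its call with DESeq2 (adjusted p = 0.364), without AAV 7249 (edgeR 0.262), without vehicle 7250 (0.145), without vehicle 7251 (0.170) and without mural transcripts (0.215).

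**Figure D5:**
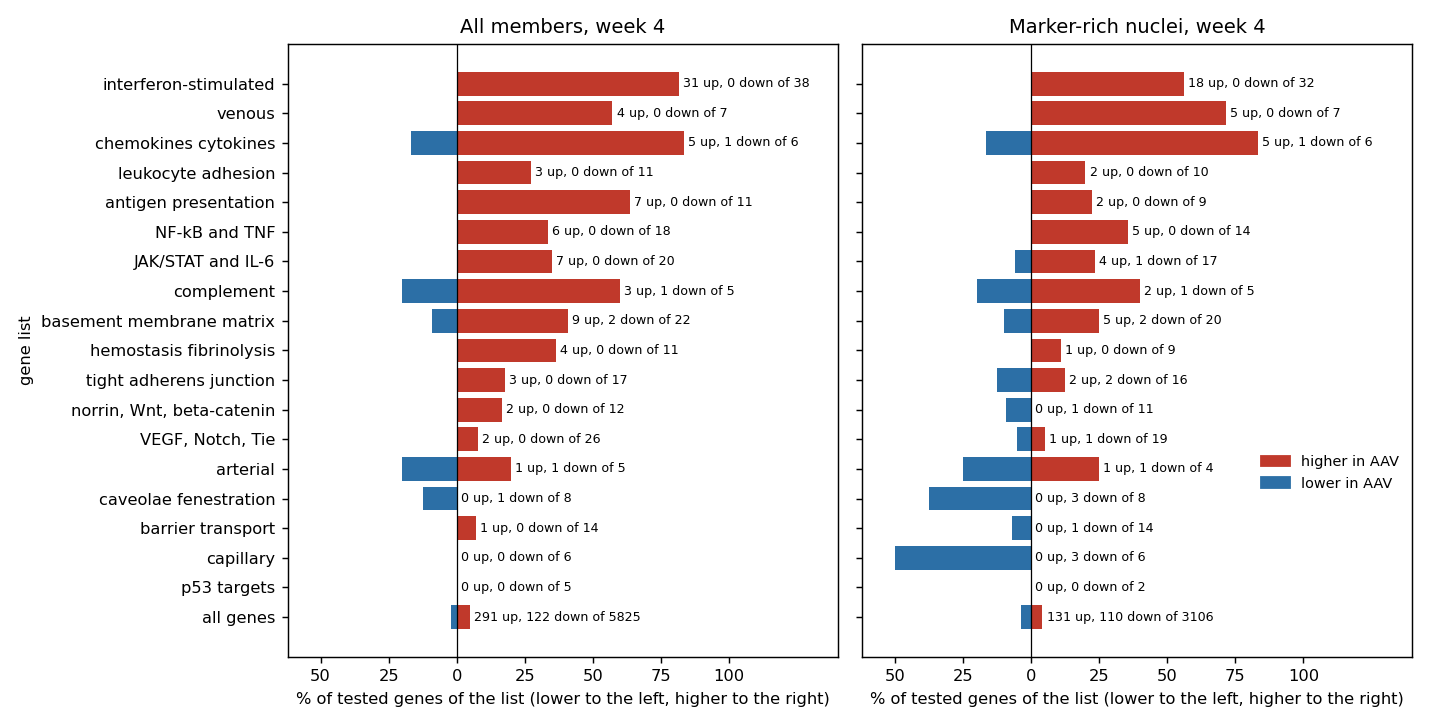
Share (%) of each gene list's tested genes that passed at week 4, higher in AAV to the right (red) and lower to the left (blue), for all members and for marker-rich nuclei, with counts beside the bars. In marker-rich nuclei the chemokine, venous and interferon-stimulated lists have the longest red bars. The capillary, caveolae, barrier transport and norrin lists have blue bars only. Those of barrier transport (1 of 14) and norrin (1 of 11) are near the 7.76% of all genes tested that passed.

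Over the 6 animals, with week as a term and both eyes of a week 2 animal summed, 65 of 4477 genes (1.45%) passed in marker-rich nuclei, 49 higher (1.09%) and 16 lower (0.357%), and over all members 45 of 6295 (0.715%) passed, 42 higher (0.667%) and 3 lower (0.0477%). Of the interferon-stimulated list 20 of 39 rose and 0 fell in marker-rich nuclei. MX2 differed by 2.74 ± 0.36 (edgeR adjusted p = 0.00848) and RSAD2, the antiviral enzyme viperin, by 3.22 ± 0.58 (edgeR adjusted p = 0.0209). CXCL12 fell by 5.44 on the log2 scale (edgeR adjusted p = 0.00848). SELP, COL4A1 and SLCO1A2 did not pass over 6 animals (edgeR adjusted p = 0.102, 0.320 and 0.207). The marker-rich count was 0 by edgeR without AAV 7249 or without vehicle 7250 (381 and 428 genes at an unadjusted p under 0.05), 27 without AAV 7248 and 16 without vehicle 7251. It was 356 without animal 7221 and 437 without animal 7222. DESeq2 called 76 genes with all 6 animals.

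Week 2 had 1 animal an arm and was not tested by itself. Of 3506 genes with enough UMIs in marker-rich nuclei, 282 (8.04%) were over 2-fold higher and 298 (8.5%) over 2-fold lower in AAV 7221 than in vehicle 7222. Over all members these were 582 (7.16%) and 520 (6.39%) of 8133 genes. Of the interferon-stimulated list 36 of 37 were over 2-fold higher, with a median log2 ratio of 2.63, while the median over all genes was near 0. In the same nuclei 9 of 11 mitochondrial genes were over 2-fold lower (median -1.49), both tested pericyte markers were lower (median -2.27) and both tested cone markers were higher (median 2.75), and their part in the week 2 values was not tested. MX1, a GTPase related to MX2, was at 596 and 958 CPM in AAV 7221 against 15.4 and 27.1 CPM in vehicle 7222, and RIGI, a sensor of viral RNA, at 459 and 1010 CPM against 46.1 and 9.05 CPM. These are 2 eyes of 1 animal each, so an animal and its treatment cannot be told apart. Of the capillary list 0 of 6 and of the basement membrane list 2 of 17 were over 2-fold higher, while 0 and 6 were over 2-fold lower.

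The AAV effect was set between weeks by the interaction over 6 animals, with the spread taken from week 4. Week 2 held 1 animal an arm, so the p-values count the spread of week 4 only. A difference between weeks cannot be told apart here from one between animals. In marker-rich nuclei 48 of 5742 genes (0.836%) passed, 30 (0.522%) with a larger AAV-to-vehicle difference at week 4 and 18 (0.313%) with a smaller one. Over all members 120 of 7620 genes (1.57%) passed, 99 larger (1.3%) and 21 smaller (0.276%). COL4A1 and COL4A2 were among the 30 (differences of 3.04 and 3.76 on the log2 scale, edgeR adjusted p = 0.00381 and 0.00169), with PTPRB (edgeR adjusted p = 0.00894) and LHX6 (edgeR adjusted p = 0.0255). The pericyte list was lower in AAV at both weeks, and its part in the interaction was not tested. Of 46 tested interferon-stimulated genes 0 were larger and 1 smaller at week 4, IFI6 (-2.81, edgeR adjusted p = 0.0287). Of the week 4 vehicle UMIs of IFI6, 88.8% lay in nuclei that held mural transcripts, without which its week 4 difference was 2.74, and the interaction was not fitted without those nuclei. For ACKR1 the interaction did not pass (edgeR adjusted p = 0.196), although its level was at most 9.05 CPM at week 2.

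The week 4 response was set against that of Müller glia, which ensheath the vessels, within the same animals. Over all members 364 of 13986 genes (2.6%) differed in their AAV effect, 230 with a larger (1.64%) and 134 with a smaller effect in endothelial nuclei (0.958%), and with marker-rich nuclei 245 of 13021 (1.88%) did, 144 with a larger effect in endothelial nuclei (1.11%) and 101 with a smaller one (0.776%). Of 48 tested interferon-stimulated genes 0 had a larger and 12 a smaller effect in marker-rich nuclei. Nuclei with at least 3 mural UMIs held 55.1% of the vehicle and 5.00% of the AAV UMIs of the marker-rich nuclei. The comparison with Müller nuclei was not repeated without them, and their part in it was not tested. The levels show where the difference lies. MX2 in Müller nuclei was at 519 and 723 CPM in AAV and at 0 and 0.774 CPM in vehicle, so marker-rich nuclei were higher than Müller nuclei in both AAV and vehicle retinas (difference of effects -7.75, edgeR adjusted p = 1.1e-20). HERC6, a ubiquitin ligase of the interferon response, was at 356 and 494 CPM against 8.26 and 6.70 CPM in Müller nuclei and at 1006 and 1250 CPM against 298 and 395 CPM in marker-rich nuclei. The larger effects included ACKR1 (edgeR adjusted p = 4.1e-06), VCAM1 (edgeR adjusted p = 0.00013), IL1R1, TLL1, IL33, BIRC3, JAK2, COL4A1, COL4A2, LAMB1, PTPRB and MAGI1. All but 1 of the 13 mitochondrial genes were among them too, and COX1 stood at 134 and 52.7 CPM in AAV against 682 and 677 CPM in vehicle Müller nuclei, while in marker-rich nuclei it was 5581 and 4758 CPM against 4583 and 2984 CPM.

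Against mural nuclei, of which the week 4 retinas held 15, 28, 32 and 106, 1 of 5741 genes (0.0174%) differed in its AAV effect over all members (CDH13, lower) and 0 of 3991 with marker-rich nuclei by edgeR. At an unadjusted p under 0.05 there were 495 and 353 genes (8.62% and 8.84%), and DESeq2 was not run for this difference. Mural nuclei held ACKR1 at 26.5 and 6.65 CPM and VCAM1 at 133 and 66.5 CPM in AAV, against 0 and 0 and 0 and 3.95 CPM in vehicle. Leaving out 1 retina gave between 20 and 83 genes over all members, and no difference that held across these settings was detectable at this depth.

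The vector's EGFP transcript was found in 0 of 135 members of the vehicle retinas. At week 2 it was detected in 10 of 30 and 11 of 63 members of AAV 7221, and at week 4 in 4 of 30 and 2 of 28 members of AAV 7248 and 7249, which over the 93 members of week 2 was 22.6%, against 11.9% of Müller nuclei of the same retinas. Most of the positive members were marker-poor: EGFP was present in 16 of 33 marker-poor nuclei at week 2 and in 6 of 10 at week 4. In marker-rich nuclei it was present in 5 of 60 at week 2 (8.33%, 95% exact binomial interval 2.76% to 18.4%) and in 0 of 48 at week 4, where 3 UMI-positive nuclei would be a share of 6.25% and the exact interval reaches 7.40%. Both limit nuclei with a UMI and not nuclei that express the vector.

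As a background, EGFP was found in 45 of 1067 T cell nuclei at week 4, a class not expected to be transduced (4.22%, median 2290 UMIs, against 6202 UMIs in marker-rich nuclei of AAV week 4), which at week 4 is read as background. At week 2 there were 8 T cell nuclei in AAV and 0 of them held EGFP, so the week 2 share could not be set against a background of that week. EGFP stood at 43.6 CPM in marker-rich nuclei of AAV week 2 (91.8 CPM in the left eye and 25.7 CPM in the right, from 7 UMIs), at 38.8 CPM in Müller nuclei of the same retinas and at 19.7 CPM in T cell nuclei of AAV week 4. After thinning to 1000 UMIs, 1 of 60 marker-rich nuclei at week 2 and 0 of 48 at week 4 held a UMI, and 1.97% of T cell nuclei did. No vector transcript was counted in the 48 marker-rich nuclei of AAV week 4, and whether any of them held the vector was not tested. The part of the vector in the rises of these nuclei was not tested either.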

How the data were processed

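Nuclei of 8 retinas, 4 lanes each, were measured by droplet single-nucleus RNA sequencing. The authors deposited raw UMI counts per gene and nucleus, made with Cell Ranger 8.0.0 on Sscrofa11.1 with the EGFP sequence added (35683 genes), and no cell type labels were used here. Doublets were not called, and mixed nuclei were left out as an alternative. Counts were summed per retina and tested with edgeR 4.0.16 (R 4.3.3; TMM scaling, quasi-likelihood test, genes kept by its expression filter, Benjamini-Hochberg adjusted p of 0.05), and both eyes of a week 2 animal were summed to 1 replicate. DESeq2 1.42.0 was the alternative. Depth was 121544835 to 173614051 UMIs a retina. The 11 rule genes entered no test. With 2 animals against 2 an exact permutation test cannot go below p = 0.333, so none was used. The members, the gene lists and the marker-rich split were chosen with earlier results of these data known.

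Genes were named by a rule: the 10 largest rises and falls at week 4 that passed without overlap between groups, up to 4 highest members of each list and every member that passed, the 5 smallest p-values of each difference test, and the rule genes with EGFP. Other genes named, such as NR2F2 and the leading genes of marker-rich and marker-poor nuclei, were chosen after their values were seen. The week 4 fits were also run on simulated counts with known differences, and the outcome is not given or relied on here. Python 3.11.15 with numpy 2.4.6, scipy 1.17.1, pandas 2.3.3 and matplotlib 3.10.9 was used for the rest.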

Additional observations from a re-analysis of the deposited data

Results flagged for a closer look

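In the comparison of the AAV effect between weeks, 48 genes in marker-rich nuclei and 120 genes over all members passed the threshold. Week 2 rested on 1 animal an arm, so the p-values count the spread of week 4 only. They cannot tell a difference between weeks from one between animals. In marker-rich nuclei the differences of smallest p, on the log2 scale with week 4 minus week 2, were 4.79 for the phosphodiesterase PDE4B, 3.76 for COL4A2, -6.10 for the cone arrestin ARR3, 3.33 for PDE4D and -5.21 for the Wnt inhibitor SFRP2. ARR3 is a cone gene and SFRP2 was high in Müller nuclei. Over all members they were 3.85 for PTPRB, 3.96 for COL4A1, 3.70 for COL4A2, 4.05 for the basement membrane proteoglycan HSPG2 and 3.28 for the mitochondrial gene ND4.

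The AAV effect at week 4 differed between endothelial members and Müller nuclei for 364 genes. With endothelial minus Müller on the log2 scale, the values were -4.30 for IFI6, -6.68 for MX2, 3.91 for COX1, 3.96 for COX2 and 4.05 for RASGRP3. Against mural nuclei 1 gene differed, CDH13, at -5.60. No cause of any of these differences was tested.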

How the results depend on the processing

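Scaling (RLE or total counts) left the counts of genes past the threshold within 1.5 times their values in the week 4 and 6-animal comparisons. Over all members the 413 genes of week 4 became 203 with DESeq2, 780 with no filter on low counts, 0 with at least 5 marker UMIs (edgeR; 388 at an unadjusted p under 0.05), 34 without mixed members, 16 without members over 3 times the median UMIs, 80 without members over 0.5% mitochondrial UMIs and 241 in marker-rich nuclei, and leaving out 1 animal gave 128 to 633. In marker-rich nuclei 241 became 80 with DESeq2, 413 with no filter and 134 without nuclei holding mural UMIs, and leaving out 1 animal gave 43 to 240. Over 6 animals the 45 genes of all members became 72 with DESeq2, 235 with no filter, 27 with at least 2000 UMIs, 0 with at least 5 marker UMIs (444 unadjusted), 16 without the deepest members and 26 without the mitochondrial ones, and leaving out 1 animal gave 0 to 528. The 65 of marker-rich nuclei became 258 with no filter, and 0 to 437 without 1 animal. The 120 genes that differed between weeks became 37 with DESeq2, 43 without mixed members and 48 in marker-rich nuclei, with 283 to 428 without 1 animal, and the 48 of marker-rich nuclei gave 29 to 96. The 364 genes against Müller nuclei became 114 without mixed members and 316 to 442 without 1 animal. The 1 gene against mural nuclei became 0 with no animal term (552 unadjusted) and 0 in marker-rich nuclei (353 unadjusted), and 20 to 83 without 1 animal.

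The 87 list genes that passed became 10 without mixed members, and the 31 interferon-stimulated genes became 4 without mixed members and 18 in marker-rich nuclei. The members' share of nuclei was 0.103% with at least 2000 UMIs, 0.0464% with at least 5 marker UMIs, 0.0442% without mixed members and 0.0571% for marker-rich nuclei. EGFP was in 12.9% of week 2 members with at least 2 UMIs, 7.53% after thinning and 8.33% of marker-rich nuclei, and at week 4 in 0 after thinning and 0 of marker-rich nuclei. At week 2, 582 genes over 2-fold higher became 289 in left eyes, 262 without mixed members and 282 in marker-rich nuclei, and 520 lower became 259, 243 and 298. Over all members at week 4, CGNL1 (-0.027), FLI1 (-0.20), LEF1 (-0.22) and NLRC5 (-0.0326) turned without mixed members, and CLDN5 (-0.019) and ELAVL2 (0.57) with at least 5 marker UMIs. The cause of these changes was not tested. No paired analysis was possible because the replicate numbers name different animals in each group and the 2 eyes of an animal received the same treatment. Members numbered 22 to 63 a retina and marker-rich nuclei 14 to 43, which limits what low genes can show.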
